A study of Mus musculus with 14 samples.

Results

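The Eph receptors and ephrins that are linked to the position of cells along the crypt were described in isolated mouse colon epithelium by RNA-seq. The members were 10 genes named by symbol, the receptors Ephb2, Ephb3, Ephb4, Ephb6, Epha1 and Epha2 and the ligands Efna1, Efna4, Efnb1 and Efnb2, out of 37680 genes in the count table. All 10 passed the filter on low counts (at least 10 counts in at least 3 of 14 libraries), as did 15127 genes in all. The mice were adults of 8 to 14 weeks on a background enriched for C57/BL6. WT mice and Smad4 KO mice, whose Smad4 is removed in the intestinal epithelium, and not in the mesenchyme, by a villin promoter Cre that tamoxifen switches on, either drank water (4 libraries of each genotype) or received 2.5% dextran sulfate sodium (DSS, a charged sugar polymer used to provoke colitis) in the drinking water for 3 d (3 libraries of each genotype). The treatment scheme of the study draws tamoxifen for the Smad4 KO mice, and whether WT mice received it is not given in the sources used here, so that tamoxifen and genotype cannot be told apart. For the RNA-seq, figure legends of the study count 4 replicates of WT on water but 3 of every other group. They do not name the Smad4 KO water libraries used. The labels call the libraries replicates without naming the mouse each came from, so p-values measure the spread between these libraries, which may be technical.

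Eph receptors are receptor tyrosine kinases whose ligands, the ephrins, sit on the membrane of neighboring cells, so that binding signals into both cells and sorts cells into compartments. EphB receptors bind mainly the transmembrane ephrin-B ligands and EphA receptors mainly the ephrin-A ligands, which are held by a lipid anchor. In the intestine, EphB2 and EphB3 are products of Wnt and TCF target genes and are highest toward the crypt base, whereas ephrin-B1 and ephrin-B2 are highest toward the surface, and mice without EphB2 and EphB3 misplace cells along this axis.

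Total counts ranged from 12882827 to 26087231 per library. Smad4 itself was at 2434, 3188, 2694 and 2372 normalized counts (counts scaled with the TMM factors of edgeR to a common library size) in WT on water and at 3164, 741, 936 and 702 in the libraries labelled Smad4 KO on water, so that the library labelled Smad4 KO water replicate 1 had Smad4 at the WT level. After DSS, Smad4 was at 3407 to 3650 in WT and 808 to 878 in Smad4 KO (log2 fold change -2.05, edgeR adjusted p = 1.36e-05). Mitochondrial genes held 30.6% and 32.8% of the counts of WT water replicates 3 and 4, 21.4% of Smad4 KO water replicate 4, and 4.05% to 8.23% of the other 11. Library names carry letter prefixes whose meaning was not given, and 5 of the 6 DSS libraries share the prefix D. Every Smad4 KO DSS library has this prefix and no Smad4 KO water library does, so that prefix and DSS cannot be told apart within Smad4 KO. The 8 epithelial markers summed to 223383 to 377408 normalized counts per library and the 10 endothelial markers to 123 to 268, with Cldn5 and Emcn at 0 in every library and 4 of the 10 under 10 counts in every library. Fibroblast markers summed to 292 to 853 in Smad4 KO and 202 to 313 in WT on water and to 342 to 519 in Smad4 KO and 200.3 to 275 in WT after DSS, and leukocyte markers to 297 to 752 over all libraries. The part of these shares in the results below was not tested.

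Per kilobase of exon, the scale on which levels of different genes can be compared, the ligands Efna1 and Efnb1 led the family, with means over the 14 libraries of 684 and 604 normalized counts per kb, followed by Ephb4 at 570.3, Efnb2 at 360.1 and Epha1 at 204. Ephb3 and Ephb2 each stood at 168, Efna4 at 156, Ephb6 at 118 and Epha2 at 57.8. The places depend on the length used, as for Ephb2, whose annotated exons together make up 12608 bp. With its 3653 bp transcript Ephb2 stood at 580.1 per kb, close to Ephb4 (616 by transcript length). By transcript length Ephb3 stood at 253, above Epha1 at 204, and Efnb2 at 495. Of the 12 remaining mouse Eph and ephrin genes, Epha4, which binds ligands of both classes, was highest at 50.9 per kb, Efna3 was at 28.3, and Epha6, Epha8, Epha10, Ephb1 and Efna5 had no count in any library.

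**Figure D1:**
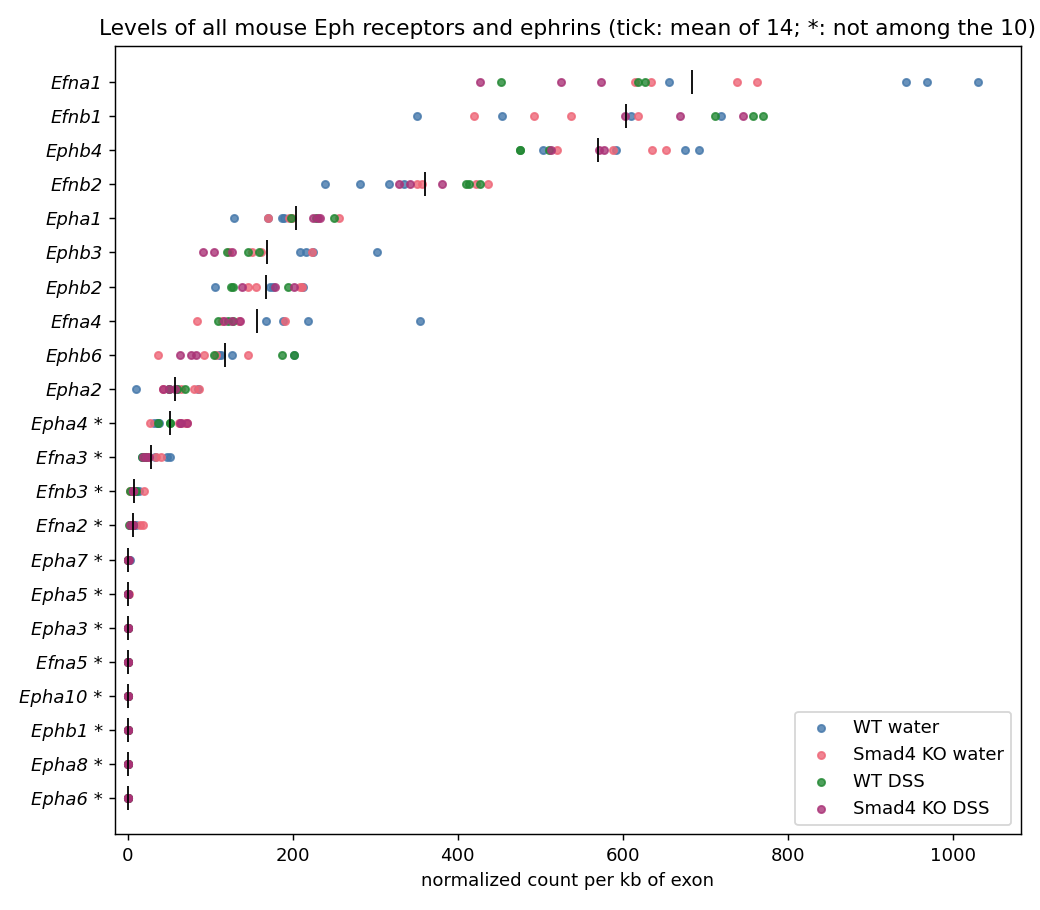
Normalized counts per kilobase of exon (x axis) of all 22 mouse Eph receptors and ephrins (y axis, ordered by mean), with 1 point per library colored by group and a tick at the mean of the 14 libraries. Efna1, Efnb1 and Ephb4 lie furthest to the right, and an asterisk marks genes that are not among the 10.

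Promoter sequences are shown for the members with the smallest p-values, Ephb3 for DSS against water in WT, Ephb6 between genotypes after DSS and Efnb2 for the difference between the DSS responses, and for Ephb2, the partner of Ephb3 in the crypt. They are RefSeq windows of GRCm38.p6, a later build than the mm9 of the counts, from 250 bases before to 50 after the transcription start, and all 10 members matched a window. Each was searched on both strands for 4 TCF words, which were CTTTGAA, then CTTTGAT, then CTTTGTA and lastly CTTTGTT, for the Smad box CAGAC and for the GC-rich Smad word GGCGCC, none of which contains another. Of 32851 windows of this length, 16.9% held a TCF word, 49.6% CAGAC and 11.9% GGCGCC. Matches are in capitals.
Ephb2, chr4:136835963-136836262, minus strand: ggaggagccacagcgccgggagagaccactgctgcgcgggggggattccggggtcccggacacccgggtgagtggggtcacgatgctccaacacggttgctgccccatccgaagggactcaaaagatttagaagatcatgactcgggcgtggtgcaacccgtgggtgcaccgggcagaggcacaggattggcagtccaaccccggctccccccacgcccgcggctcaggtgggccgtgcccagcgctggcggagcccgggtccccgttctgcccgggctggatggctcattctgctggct
Ephb3, chr16:21204545-21204844, plus strand: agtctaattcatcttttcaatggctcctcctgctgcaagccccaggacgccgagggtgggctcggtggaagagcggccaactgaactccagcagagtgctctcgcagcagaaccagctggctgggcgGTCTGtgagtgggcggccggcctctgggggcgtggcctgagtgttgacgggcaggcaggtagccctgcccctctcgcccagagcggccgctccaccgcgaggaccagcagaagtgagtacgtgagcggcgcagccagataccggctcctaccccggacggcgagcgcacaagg
Ephb6, chr6:41605261-41605560, plus strand: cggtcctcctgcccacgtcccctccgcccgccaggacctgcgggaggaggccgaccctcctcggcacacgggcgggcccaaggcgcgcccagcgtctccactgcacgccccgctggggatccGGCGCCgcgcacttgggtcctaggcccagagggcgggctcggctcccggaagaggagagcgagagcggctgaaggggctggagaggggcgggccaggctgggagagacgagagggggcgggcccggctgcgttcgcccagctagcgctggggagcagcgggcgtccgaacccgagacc
Efnb2, chr8:8661193-8661492, minus strand: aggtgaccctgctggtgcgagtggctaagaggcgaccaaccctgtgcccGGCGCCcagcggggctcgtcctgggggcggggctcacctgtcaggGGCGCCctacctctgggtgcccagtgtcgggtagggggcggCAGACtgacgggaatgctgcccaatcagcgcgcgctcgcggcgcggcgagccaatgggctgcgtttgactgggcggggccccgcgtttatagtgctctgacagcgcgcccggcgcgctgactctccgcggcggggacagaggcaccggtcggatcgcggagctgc
Ephb3 held 1 match of CAGAC, as its reverse complement 123 bases before the start, Ephb6 held 1 GGCGCC 128 bases before it, and Efnb2 held CAGAC at 115 and GGCGCC at 201 and 156 bases before it. Ephb2 held none of the words in this window. Among the 10 members, Epha2 and Efna4 held a TCF word. CAGAC was also in Epha1, Efna1 and Efnb1, and GGCGCC also in Ephb4, Epha1 and a window of Efna1, so that the Smad words were not particular to the genes shown. These matches are letters in a sequence, and binding was not measured here.

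No member passed an adjusted p of 0.05 in edgeR's quasi-likelihood test in any of the 5 comparisons, each adjusted over all 15127 genes. In Smad4 KO against WT after DSS, edgeR called 0 of the 10 members beside 0.747% of all genes, and 3 members had an unadjusted p below 0.05 beside 15.3% of all genes. On water, 0 members were called beside 0.00661% of all genes and 4 had an unadjusted p below 0.05 beside 20.4%. For DSS against water in WT, 0 members and 0% of all genes were called, and 7 members (Ephb3, Ephb4, Epha1, Efna1, Efna4, Efnb1 and Efnb2) had an unadjusted p below 0.05 beside 24.2% of all genes. For DSS against water in Smad4 KO, 0 members were called beside 0.00661% of all genes, and 3 members had an unadjusted p below 0.05 beside 6.44%. In the test of whether the DSS response differed between genotypes, 0 members were called beside 0.00661% of all genes, and 2 had an unadjusted p below 0.05 beside 7.5%. DESeq2 called 1 member (Ephb6) between genotypes after DSS, beside 3.3% of all genes, and 4 (Ephb3, Efna1, Efna4 and Efnb2) for DSS in WT, beside 11.7%. It called 0 members on water, for DSS in Smad4 KO and for the difference of the responses, beside 5.08%, 0.469% and 0.0529% of all genes. The comparisons share libraries, so that members seen in several of them are not repeated observations. Groups did not overlap for 3 of 10 members after DSS (Ephb6 and Efnb2 lower and Ephb4 higher in Smad4 KO) beside 21.7% of all genes, for 1 on water (Efnb2, higher) beside 10.4%, with 0 lower beside 5.21%, for 5 under DSS in WT (Ephb3, Efna1 and Efna4 lower, Epha1 and Efnb2 higher) beside 24.4%, and for 1 under DSS in Smad4 KO (Efna1, lower) beside 8.88%, with 0 higher beside 4.6%. On water, Ephb3 and Ephb6 overlapped only through the library labelled Smad4 KO water replicate 1, which had Smad4 at the WT level. Without it both were lower in Smad4 KO without overlap, and the share of all genes without it was not counted. Median log2 fold changes of the members were -0.15, -0.044, 0.019, -0.14 and 0.0014 in the order above, beside medians of all genes between -0.022 and -0.00047. In these bulk samples, fewer cells of a type and less RNA per cell cannot be told apart.

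**Figure D2:**
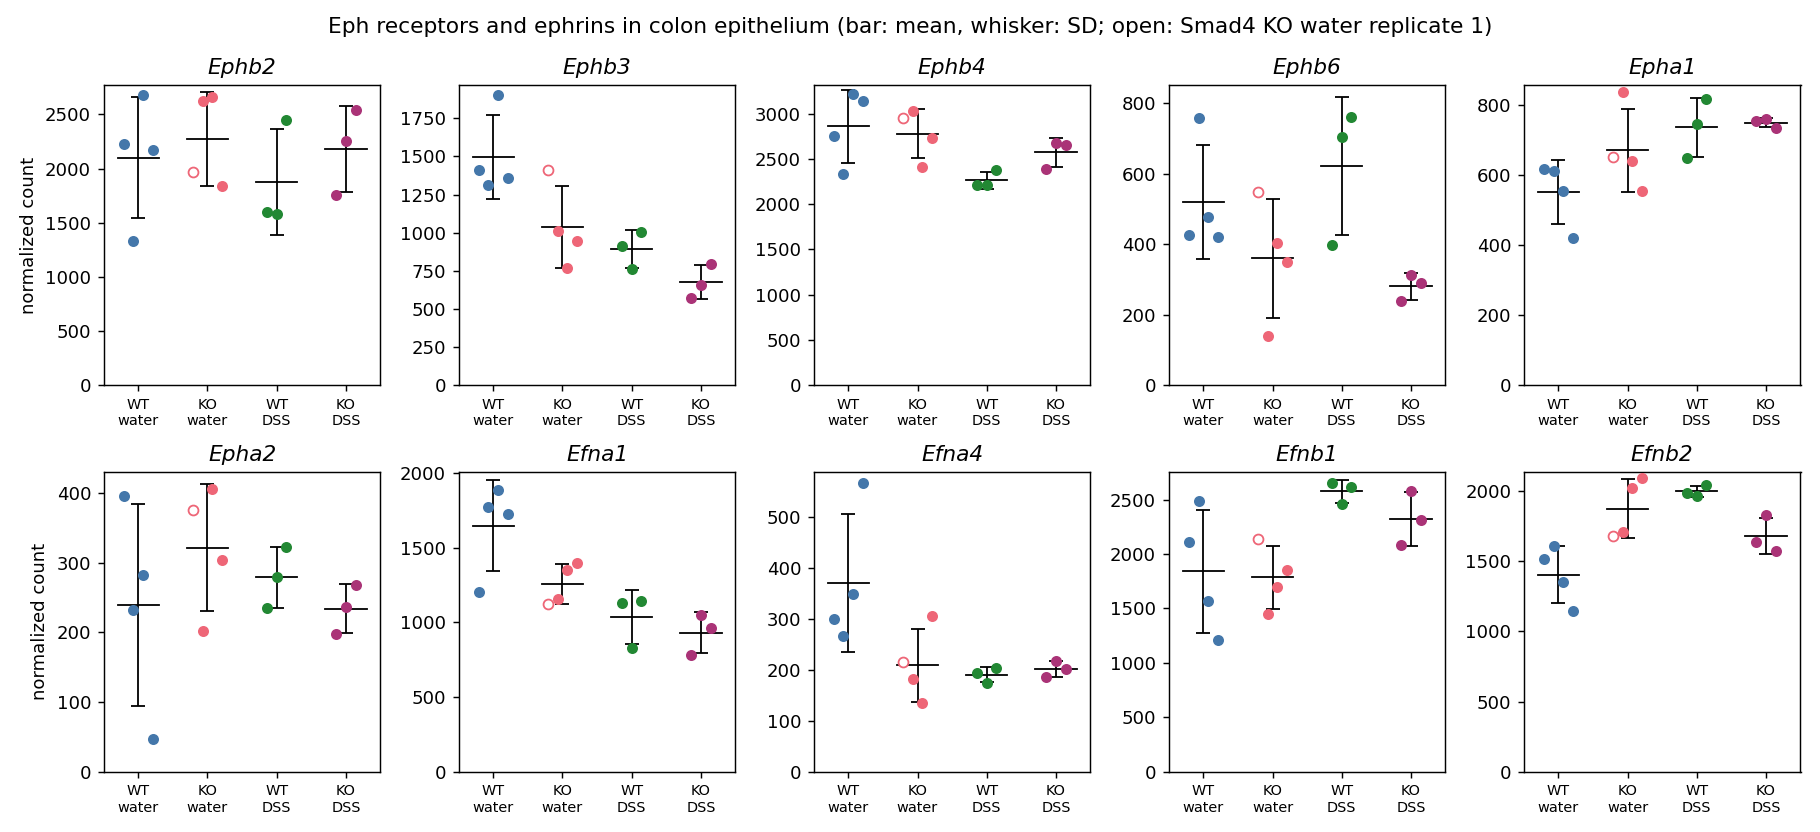
Normalized counts (y axes, starting at 0) of the 10 members in each of the 14 libraries, by group, with bars at the group mean and whiskers of 1 SD (n = 4, 4, 3 and 3). The means of Ephb3 and Efna1 are highest in WT on water and lowest in Smad4 KO after DSS, and Ephb6 in the 3 Smad4 KO DSS libraries lies below all 3 WT DSS libraries. The open point is the library labelled Smad4 KO water replicate 1.

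**Figure D3:**
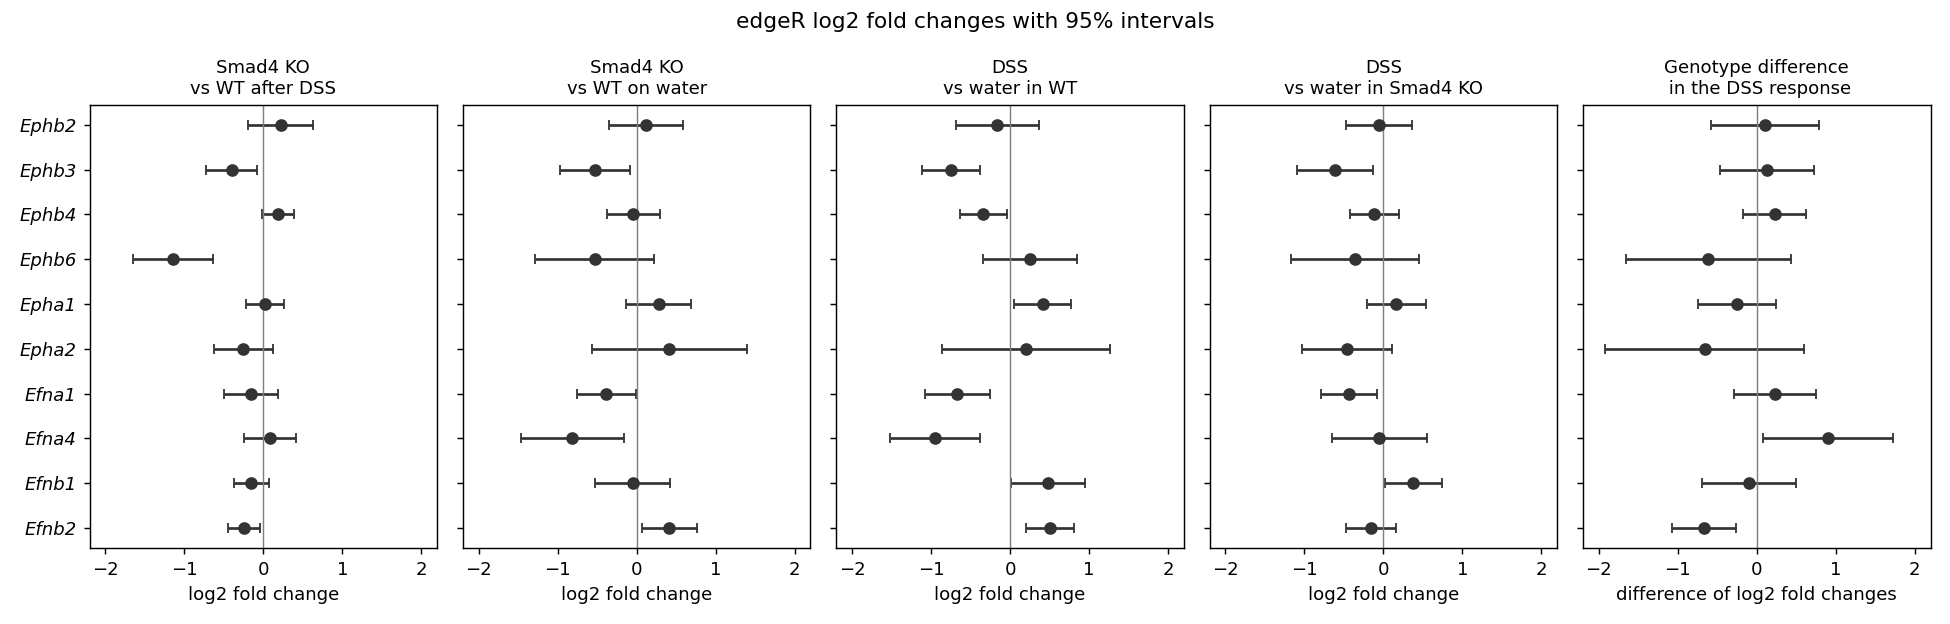
Log2 fold changes (x axes) of the 10 members in the 4 comparisons and the difference between genotypes of the DSS response, from edgeR, with 95% intervals as bars and a line at 0. Ephb6 after DSS (-1.15) and Efna4 under DSS in WT (-0.95) lie furthest from 0 to the left among the 4 comparisons. The genotype differences of Efnb2, Ephb4, Epha2 and Efna4 have opposite signs on water and after DSS.

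Ephb3, on chromosome 16 of mm9 from 21204828 to 21223378 on the plus strand, encodes the EphB receptor that acts with EphB2 in crypt positioning. It stood at 1409.8, 1315, 1902 and 1357 normalized counts in WT on water and at 914, 758 and 1004 in WT after DSS. All WT DSS libraries were below all WT water libraries (1496 ± 274, SD, n = 4 against 892 ± 124, SD, n = 3), with a log2 fold change of -0.75 (SE 0.17, 95% interval -1.12 to -0.38, edgeR adjusted p = 0.0878). Without the 2 WT water libraries of over 20% mitochondrial counts the difference was -0.61 (edgeR adjusted p = 0.0855). DESeq2 called it (log2 fold change -0.75, DESeq2 adjusted p = 0.00304), beside 11.7% of all genes, as did edgeR without WT water replicate 2 (log2 fold change -0.80, edgeR adjusted p = 0.0494), beside 2.34%, and edgeR with no filter on low counts (log2 fold change -0.75, edgeR adjusted p = 0.0351), beside 1.95%.

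In Smad4 KO, Ephb3 stood at 1408, 1013, 771 and 945 on water and 573, 657 and 796 after DSS. The highest of the 4 water values was that of the library with WT-level Smad4. The genotype difference on water was -0.53 (95% interval -0.97 to -0.089, edgeR adjusted p = 0.187) over all 8 libraries and -0.72 (edgeR adjusted p = 0.164) without that library. In 1 model of the 13 remaining libraries it was -0.72 (edgeR adjusted p = 0.0298), beside 7.59% of all genes called. After DSS the genotypes overlapped at 1 library each, with a log2 fold change of -0.40 (SE 0.15, 95% interval -0.73 to -0.075, edgeR adjusted p = 0.247). DSS against water in Smad4 KO gave -0.61 (95% interval -1.09 to -0.14, edgeR adjusted p = 0.738), and the DSS responses of the genotypes differed by 0.13 (95% interval -0.46 to 0.72, edgeR adjusted p = 0.908). The group means were in the order WT water (1496), Smad4 KO water (1034), WT DSS (892) and Smad4 KO DSS (676), and each neighboring pair overlapped. WT water and Smad4 KO water overlapped only through the library with WT-level Smad4.

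Ephb2, on chromosome 4 of mm9 from 136203454 to 136391903 on the minus strand, encodes the receptor by which crypt base cells are commonly sorted. Its values were 2224, 1334, 2675 and 2169 in WT and 1968, 2627, 2658 and 1835 in Smad4 KO on water, and 1603, 1582 and 2444 in WT and 1754, 2258 and 2537 in Smad4 KO after DSS. All 4 groups overlapped, with means from 1876 ± 492 (SD, n = 3) in WT DSS to 2272 ± 432 (SD, n = 4) in Smad4 KO water. The genotype difference was 0.22 (95% interval -0.20 to 0.64, edgeR adjusted p = 0.614) after DSS and 0.11 (95% interval -0.35 to 0.58, edgeR adjusted p = 0.796) on water. DSS against water gave -0.16 (95% interval -0.69 to 0.36, edgeR adjusted p = 0.709) in WT and -0.058 (95% interval -0.48 to 0.36, edgeR adjusted p = 0.976) in Smad4 KO. Each of these intervals spans 0.

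Ephb2 and Ephb3 were compared with 13 other Wnt and TCF target or crypt base genes across the 14 libraries as a description. The libraries share groups, depth and preparation, and mix 4 groups, so that the correlations are not of independent points. Ephb3 ran with Axin2, a scaffold of the Wnt pathway that its signal induces, and with Ascl2, a transcription factor of crypt base stem cells (Pearson r = 0.909 for both, on log2 normalized counts, 14 libraries). Ephb2 had r = 0.0679 with Axin2 and -0.18 with Ascl2, and its highest value in this list was 0.639 with Sox9, a transcription factor of crypt progenitors. Axin2 and Ascl2 are the highest of the 13 values of Ephb3, and the other 11 lay between -0.356 (Lrig1) and 0.386 (Rnf43), so that Ephb3 did not run with most of the list. With Lgr5, the stem cell receptor for R-spondin, r was 0.525 for Ephb2 and 0.0885 for Ephb3. Axin2 stood at 907 ± 189.8 (SD, n = 4) in WT water, 683 ± 307 (SD, n = 4) in Smad4 KO water, 529 ± 146 (SD, n = 3) in WT DSS and 426 ± 48.4 (SD, n = 3) in Smad4 KO DSS, the order of the Ephb3 means. After DSS, 1 of 13 tested genes of the list, Smoc2, a matricellular protein of the stem cell signature, rose in Smad4 KO against WT (log2 fold change 1.53, edgeR adjusted p = 0.00497), beside 0.331% of all genes called higher, and the median of the list was 0.068. In the other 4 comparisons no gene of the list was called by edgeR.

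**Figure D4:**
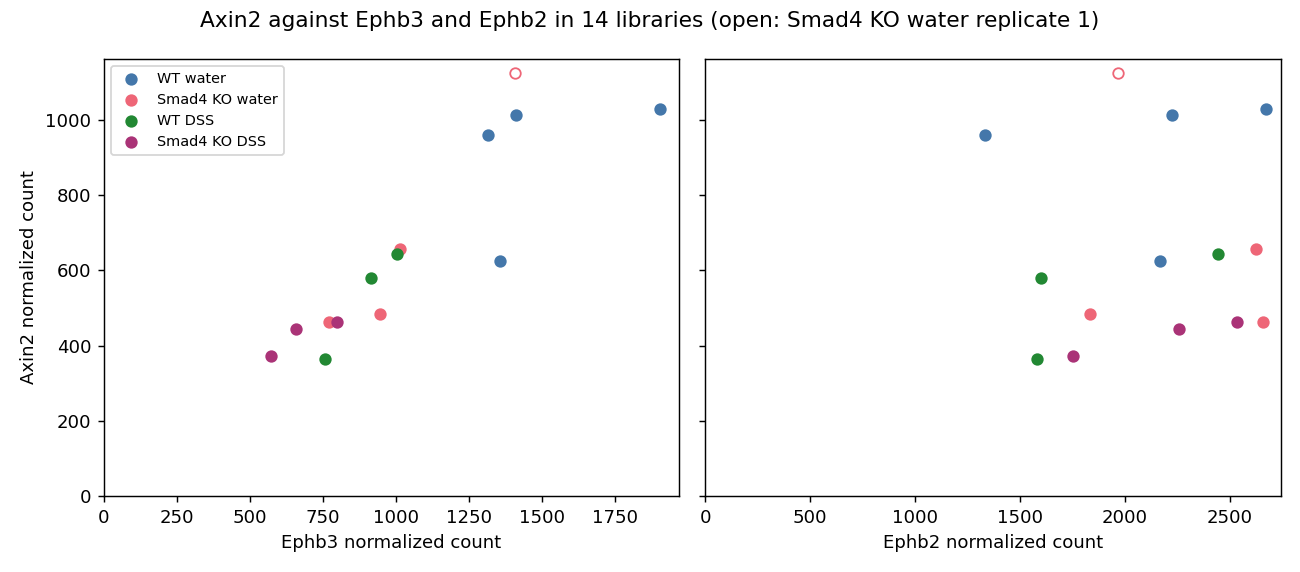
Normalized counts of Axin2 (y axis) against those of Ephb3 (left, x axis) and Ephb2 (right, x axis) in the 14 libraries, colored by group. The Ephb3 points lie along a rising band from Smad4 KO DSS to WT water (r = 0.909 on log2 values), whereas the Ephb2 points spread without one (r = 0.0679). The open point is the library labelled Smad4 KO water replicate 1.

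Ephb6, on chromosome 6 of mm9 from 41555481 to 41570508 on the plus strand, encodes a receptor whose kinase domain lacks catalytic activity. After DSS it stood at 397, 705 and 762 normalized counts in WT and at 239, 313 and 291 in Smad4 KO. All 3 Smad4 KO libraries were below all 3 WT libraries (281 ± 38.3, SD, n = 3 against 621 ± 197, SD, n = 3), as for 11.4% of all genes tested, with a log2 fold change of -1.15 (SE 0.23, 95% interval -1.65 to -0.64, edgeR adjusted p = 0.06). This was the member nearest to the threshold in any comparison. It was called by DESeq2 (log2 fold change -1.14, DESeq2 adjusted p = 4.62e-05), by edgeR with no filter on low counts (log2 fold change -1.15, edgeR adjusted p = 0.00225), with the replicate number as a block (log2 fold change -1.10, edgeR adjusted p = 0.0317), and without WT DSS replicate 1, the lowest of the WT values (log2 fold change -1.38, edgeR adjusted p = 0.00576), beside 3.3%, 1.51%, 0.377% and 0.661% of all genes in the order given. Among the 5 libraries of name prefix D the difference was -0.97 (edgeR adjusted p = 0.153), and in 1 model of all 14 libraries -1.15 (edgeR adjusted p = 0.711). On water, Ephb6 stood at 424, 759, 478 and 419.6 in WT and 548, 139.6, 403 and 349.9 in Smad4 KO. The library with WT-level Smad4 was the highest of the Smad4 KO values, as for Ephb3, whereas for Efna1 it was the lowest. The genotype difference on water was -0.53 (95% interval -1.29 to 0.22, edgeR adjusted p = 0.404) with all 8 libraries and -0.81 (edgeR adjusted p = 0.267) without that library. The lowest value, 139.6, was in Smad4 KO water replicate 2, and without that library the difference was -0.27 (edgeR adjusted p = 0.653). DSS against water gave 0.25 (edgeR adjusted p = 0.598) in WT and -0.36 (edgeR adjusted p = 0.9) in Smad4 KO, and the responses of the genotypes differed by -0.61 (95% interval -1.66 to 0.43, edgeR adjusted p = 0.74). The order of the means was WT DSS (621), WT water (520.2), Smad4 KO water (360.0) and Smad4 KO DSS (281), and each neighboring pair overlapped. For WT water and Smad4 KO water the overlap came only from the library with WT-level Smad4.

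Ephb4, on chromosome 5 of mm9 from 137791337 to 137819897 on the plus strand, encodes the receptor that prefers ephrin-B2 and is best known from veins. It had among the highest counts per kb of the receptors, at 2205 to 3213 normalized counts per library. After DSS it stood at 2206, 2205 and 2371 in WT and 2382, 2678 and 2652 in Smad4 KO. All Smad4 KO libraries were above all WT libraries, as for 10.4% of all genes tested, with a log2 fold change of 0.19 (SE 0.090, 95% interval -0.017 to 0.39, edgeR adjusted p = 0.365). Under DSS in WT the difference from water was -0.34 (95% interval -0.64 to -0.036, edgeR adjusted p = 0.171), or -0.17 (edgeR adjusted p = 0.409) without the libraries of over 20% mitochondrial counts, and in Smad4 KO it was -0.11 (95% interval -0.43 to 0.20, edgeR adjusted p = 0.921). Ephb4 overlaps Zan on the opposite strand over 33 bp, and the strand setting of the counting is not given in the sources used here.

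Among the EphA receptors, Epha1 stood at 552 ± 91.4 (SD, n = 4) in WT water, 672 ± 119 (SD, n = 4) in Smad4 KO water, 738 ± 84.3 (SD, n = 3) in WT DSS and 750.4 ± 13.5 (SD, n = 3) in Smad4 KO DSS. Every WT DSS library was above every WT water library, at 649.6 or more against 619 or less (log2 fold change 0.41, SE 0.16, 95% interval 0.054 to 0.77, edgeR adjusted p = 0.161). The lowest value, 422, came from WT water replicate 4, the library with the highest mitochondrial share, and without the libraries of over 20% mitochondrial counts the difference was 0.26 (edgeR adjusted p = 0.299). After DSS the genotypes differed by 0.025 (95% interval -0.22 to 0.27, edgeR adjusted p = 0.938). Epha1 overlaps Zyx on the opposite strand over 1660 bp, where reads of the 2 genes cannot be told apart without strand. Epha2, the main receptor of ephrin-A1, stood at 396, 232, 282 and 47.1 in WT water, with a single low value, 47.1 from 22 raw counts, in WT water replicate 4. Its genotype difference on water was 0.41 (95% interval -0.57 to 1.4, edgeR adjusted p = 0.636), which became 0.086 (edgeR adjusted p = 0.915) without that library and 0.77 (edgeR adjusted p = 0.405) without WT water replicate 1. After DSS it was -0.25 (95% interval -0.63 to 0.12, edgeR adjusted p = 0.512), and its DSS difference in WT was 0.20 (95% interval -0.86 to 1.26, edgeR adjusted p = 0.834).

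The ephrin-A ligands Efna1 and Efna4 lie within 1 stretch of chromosome 3 on the minus strand, Efna1 from 89075655 to 89085064 and Efna4 from 89137312 to 89141950 of mm9, with Efna3 between them. Efna1 stood at 1201, 1772, 1886 and 1725 in WT on water and at 1132, 829 and 1146 in WT after DSS. All DSS libraries were below all water libraries, with a log2 fold change of -0.67 (SE 0.18, 95% interval -1.08 to -0.26, edgeR adjusted p = 0.0983). In Smad4 KO the values were 1125, 1159.8, 1350.4 and 1395 on water and 781, 1049.7 and 961 after DSS, again without overlap (log2 difference -0.43, 95% interval -0.79 to -0.082, edgeR adjusted p = 0.738), as for 4.28% of all genes in that direction. The DSS responses of the genotypes differed by 0.23 (95% interval -0.28 to 0.75, edgeR adjusted p = 0.807). Efna1 means had the same order as those of Ephb3, from WT water (1646) through Smad4 KO water (1258) and WT DSS (1036) to Smad4 KO DSS (931), with each neighboring pair overlapping.

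Efna4 stood at 300.0, 267, 349 and 567 in WT on water against 194, 175 and 203 after DSS, with all DSS libraries below all water libraries and a log2 fold change of -0.95 (SE 0.26, 95% interval -1.52 to -0.37, edgeR adjusted p = 0.097). In Smad4 KO it was at 215, 183, 134 and 305 on water and 186, 217 and 202 after DSS, a difference of -0.050 (95% interval -0.66 to 0.56, edgeR adjusted p = 0.987). The highest value in each water group was that of replicate 4, and both those libraries had over 20% mitochondrial counts. Without the libraries over that share, the difference under DSS in WT was -0.57 (edgeR adjusted p = 0.12), down from -0.95, and that between genotypes on water -0.68 (edgeR adjusted p = 0.182), from -0.82. The latter was called by edgeR without Smad4 KO water replicate 4 (log2 fold change -1.06, edgeR adjusted p = 0.0422), beside 11.5% of all genes, and with the name prefix as a block (log2 fold change -0.85, edgeR adjusted p = 0.014), beside 13.3%, and was -0.55 (edgeR adjusted p = 0.419) without WT water replicate 4. The DSS responses differed by 0.90 (95% interval 0.077 to 1.72, edgeR adjusted p = 0.643). After DSS the genotypes differed by 0.082 (95% interval -0.24 to 0.41, edgeR adjusted p = 0.826). Efna4 shares 179 bp with 4731419I09Rik on the opposite strand. Efna3 was at 90.5 ± 38.4 (SD, n = 4) in WT water and 48.3 ± 6.80 (SD, n = 3) in WT DSS (log2 fold change -0.90, edgeR adjusted p = 0.193).

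Of the ephrin-B ligands, Efnb1, on chromosome X of mm9 from 96331469 to 96344330 on the plus strand, stood at 2108, 2482, 1568 and 1212 in WT on water and 2656, 2458 and 2617 after DSS. The WT water libraries spread widely, the lowest 2 being those of over 20% mitochondrial counts, and the highest overlapped the DSS group. The difference was 0.48 on the log2 scale (SE 0.21, edgeR adjusted p = 0.2). It was 0.17 (edgeR adjusted p = 0.417) without those 2 libraries, and 0.16 (edgeR adjusted p = 0.837) with the name prefix as a block. In Smad4 KO the values were 2134, 1447, 1699.6 and 1856 on water and 2081, 2574 and 2312 after DSS (log2 difference 0.38, 95% interval 0.019 to 0.74, edgeR adjusted p = 0.755). The genotypes differed by -0.15 (95% interval -0.38 to 0.077, edgeR adjusted p = 0.515) after DSS and -0.048 (95% interval -0.53 to 0.43, edgeR adjusted p = 0.919) on water.

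Efnb2, on chromosome 8 of mm9 from 8617434 to 8661239 on the minus strand, had opposite genotype differences on water and after DSS, as did Ephb4, Epha2 and Efna4. On water it stood at 1519, 1606, 1351 and 1145 in WT and 1682, 1706, 2019.9 and 2091 in Smad4 KO, with every Smad4 KO library above every WT library, as for 5.18% of all genes tested (log2 fold change 0.41, SE 0.16, 95% interval 0.071 to 0.76, edgeR adjusted p = 0.186). Without the 3 libraries of over 20% mitochondrial counts this difference was 0.21 (edgeR adjusted p = 0.492). After DSS it stood at 1983, 1964 and 2044 in WT and 1639, 1826 and 1576 in Smad4 KO, with every Smad4 KO library below every WT library, as for 11.4% of all genes tested (log2 fold change -0.25, SE 0.090, 95% interval -0.45 to -0.047, edgeR adjusted p = 0.248). In WT it was higher in all 3 DSS libraries than in all 4 water libraries (log2 fold change 0.50, SE 0.13, 95% interval 0.20 to 0.80, edgeR adjusted p = 0.0967), a pattern shared by 12.8% of all genes, and in Smad4 KO the DSS difference was -0.16 (95% interval -0.48 to 0.16, edgeR adjusted p = 0.885). The difference between these responses was -0.66 on the log2 scale (SE 0.19, 95% interval -1.07 to -0.26, unadjusted p = 0.00313, edgeR adjusted p = 0.643), from the single model of 14 libraries. Without those 3 libraries it was -0.46 (edgeR adjusted p = 0.222), and without the library with WT-level Smad4 -0.71 (edgeR adjusted p = 0.575). The means ran from WT DSS (1997) through Smad4 KO water (1875) and Smad4 KO DSS (1680.2) to WT water (1405), and each neighboring pair overlapped.

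The ratio of a receptor to a ligand within a library does not depend on how libraries are scaled. The log2 ratio of Ephb3 to Efnb1 counts was -0.58, -0.92, 0.28 and 0.16 in WT water, -0.60, -0.51, -1.14 and -0.97 in Smad4 KO water, -1.54, -1.70 and -1.38 in WT DSS and -1.86, -1.97 and -1.54 in Smad4 KO DSS. All 6 DSS libraries were below all 8 water libraries, as for the ratio to Efnb1 of 5.31% of all genes (with 0.5 added to each count). The opposite split, with all DSS libraries above, held for 0.00661% of all genes. Efnb1 is the denominator of every such ratio, and its part in the split was not tested. The 2 values above 0 are those of WT water replicates 3 and 4, the libraries with the highest mitochondrial shares, and with that share Ephb3 had r = 0.574 and Efnb1 r = -0.729 over the 14 libraries. The ratio of Ephb2 to Efnb1 had means of 0.20 ± 0.81 (SD, n = 4) in WT water, 0.34 ± 0.48 (SD, n = 4) in Smad4 KO water, -0.49 ± 0.34 (SD, n = 3) in WT DSS and -0.10 ± 0.21 (SD, n = 3) in Smad4 KO DSS, and the water and DSS groups overlapped. The ratio of Epha2 to Efna1 ranged from -5.20 to -1.60 in WT water and from -2.52 to -1.57 in the other groups.

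**Figure D5:**
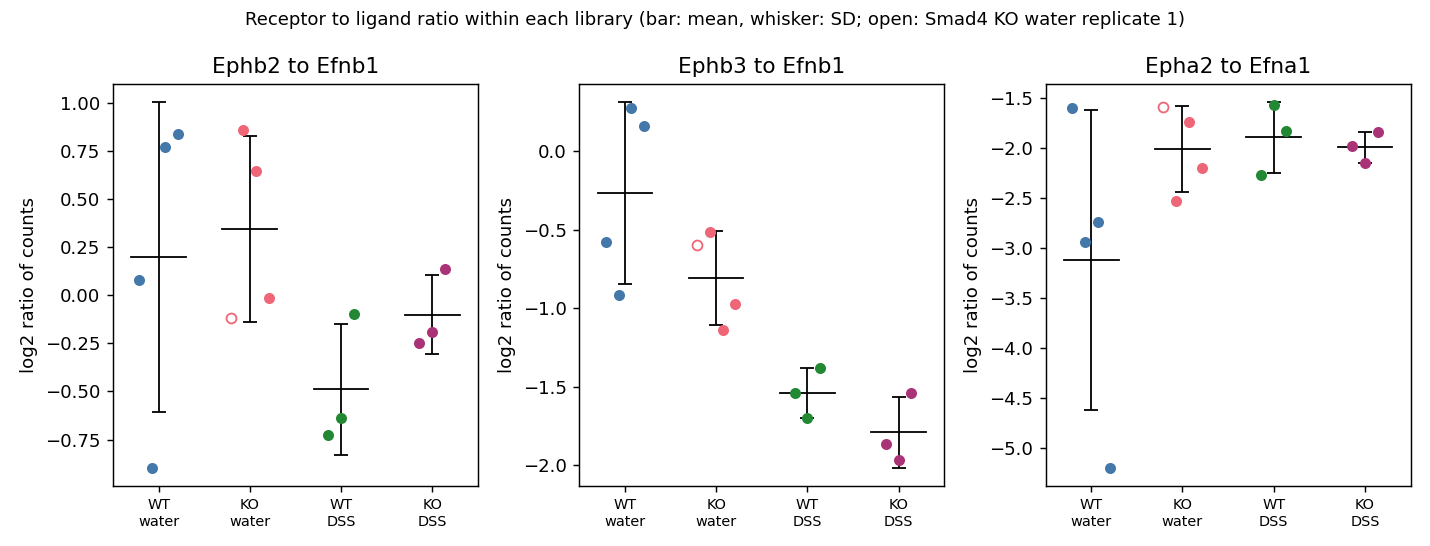
Log2 ratio of receptor to ligand counts (y axes) in each of the 14 libraries for 3 pairs, by group, with bars at the mean and whiskers of 1 SD. For Ephb3 to Efnb1 the 6 DSS libraries (-1.97 to -1.38) lie below the 8 water libraries (-1.14 to 0.28), and for the other pairs the groups overlap. The open point is the library labelled Smad4 KO water replicate 1.

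Genes that carry Eph and ephrin signals inside the cell were taken as a list of 39 adaptors, exchange factors, kinases and phosphatases, all of which were tested. In Smad4 KO against WT after DSS, 1 of 39 passed the test, beside 0.747% of all genes. This was Ngef, a signalling protein that binds EphA4, which fell from 1055 ± 35.0 (SD, n = 3) in WT to 704 ± 78.7 (SD, n = 3) in Smad4 KO (log2 fold change -0.58, edgeR adjusted p = 0.0456). The median of the list was -0.024, and 10 of the 39 had an unadjusted p below 0.05 beside 15.3% of all genes. On water, Ngef differed by -0.33 (edgeR adjusted p = 0.269), and no gene of the list was called by edgeR there or in the other 3 comparisons. An unadjusted p below 0.05 was reached by 12 of the 39 on water, beside 20.4% of all genes. The count was 11 for DSS in WT beside 24.2%, 2 for DSS in Smad4 KO beside 6.44%, and 6 for the response difference beside 7.5%. Epha4 itself stood at 322, 236 and 328 in WT and 454, 406 and 403 in Smad4 KO after DSS, without overlap (log2 difference 0.51, 95% interval 0.18 to 0.84, edgeR adjusted p = 0.159), and at 233, 242, 223 and 203 in WT and 396, 438, 455 and 170.1 in Smad4 KO on water (log2 difference 0.69, 95% interval 0.082 to 1.30, edgeR adjusted p = 0.201), where Smad4 KO replicate 4 was the lowest of all.

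Genes of the opposite end of the crypt axis were read beside the members. Of 12 surface colonocyte genes, 4 fell in Smad4 KO against WT after DSS, beside 0.416% of all genes called lower, and the median of the list was -0.15. They were Mal, a protein of apical transport (log2 fold change -3.74, edgeR adjusted p = 0.00177), the keratin Krt20 (log2 fold change -0.85, edgeR adjusted p = 0.0302), the water channel Aqp8 (log2 fold change -1.0, edgeR adjusted p = 0.0416) and the carbonic anhydrase Car4 (log2 fold change -1.03, edgeR adjusted p = 0.0456). Efnb1 and Efnb2, the ligands of that end, differed by -0.15 and -0.25 in the same comparison and were not called. None of the 10 cell cycle genes, 8 epithelial markers, 5 tested endothelial, 4 tested smooth muscle or 9 tested leukocyte markers was called after DSS, with 1, 2, 2, 2 and 0 of them at an unadjusted p below 0.05 beside 15.3% of all genes. Of 8 tested fibroblast markers, 3 that encode fibrillar collagens were called higher, beside 0.331% of all genes. They were Col1a1 by 2.60 (edgeR adjusted p = 0.0456), Col1a2 by 3.12 (edgeR adjusted p = 0.0456) and Col3a1 by 4.13 (edgeR adjusted p = 0.00801) on the log2 scale. All 8 had a positive difference (median 2.40), and 5 had an unadjusted p below 0.05 beside 15.3% of all genes. The part of such cells in the member values was not tested. On water, 7 of the 8 tested fibroblast markers had a positive difference (median 1.89 on the log2 scale) and none was called, with 4 at an unadjusted p below 0.05 beside 20.4% of all genes.

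Across the 14 libraries, the 3 genes of all tested whose log2 normalized counts ran most like those of Ephb3 were Dmpk (Pearson r = 0.964), Cpn1 (0.925) and Axin2 (0.909). For Ephb6 they were Slc24a6 (0.92), Tpcn1 (0.91) and Sp110 (0.907), for Ephb2 Dna2 (0.851), Nav2 (0.841) and Chst11 (0.835), and for Efnb2 Scpep1 (0.898), Tmem164 (0.894) and Plekhb2 (0.891). The remaining members had leading values from 0.891 for Efna1 (with Zfp113) to 0.968 for Efna4 (with Ccdc130). For Ephb4, mt-Tr, a mitochondrial tRNA, was among the 3 (0.892). Between the members themselves, r ran from -0.811 for Epha1 and Efna4 to 0.762 for Ephb3 and Efna1 over 45 pairs. With the mitochondrial share of the library, r was 0.841 for Efna4, -0.799 for Epha1, -0.729 for Efnb1, 0.678 for Efna1, 0.662 for Ephb4, -0.623 for Efnb2, 0.574 for Ephb3 and -0.553 for Epha2, against 0.196 for Ephb2 and 0.0276 for Ephb6. The 3 libraries with the high shares are all water libraries, so that these values follow the treatment too. Without them, 22 of the 40 member differences in the comparisons that use water libraries moved by over 1.5 times or turned in sign, 12 toward 0, 3 away from it and 7 to the other sign.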

How the data were processed

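Colonic epithelium was stripped from the colon with EDTA, and poly(A) RNA of 14 libraries was sequenced by the authors, aligned to mm9 with HISAT2 and counted per gene with featureCounts. The table they deposited gives raw read counts, as whole numbers, and 14001 of its 37680 genes were at 0 in every library. Annotation release and strand setting are not given in the sources used here. Libraries were grouped by their labels. A gene needed 10 or more counts in 3 or more libraries to enter the test, edgeR 4.0.16 (R 4.3.3) with TMM factors from all 14 libraries and the quasi-likelihood test, in a model of the 2 groups compared, or of all libraries for the difference of responses, with Benjamini-Hochberg adjustment over all genes tested and a threshold of 0.05. Alternatives were DESeq2 1.42.0, other size factors, filters and models, blocks, and each library left out. Removal of libraries with over 20% mitochondrial counts was chosen after seeing the data. Positions and exon lengths are from GENCODE M1 on mm9, which placed 37310 genes. Scripts were tested on simulated data.

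All 10 members were named in every comparison. From each other list up to 4 called genes per direction were named, and for each member the 3 genes of likest pattern were ranked. The members and lists were chosen with earlier results of these data known.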

Additional observations from a re-analysis of the deposited data

Results flagged for a closer look

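Among 26 groups of 4 libraries tested for a value far from the rest, 2 held one, and chance gives about 1 in 20. Ephb3 was at 1902.2 normalized counts in WT water replicate 3, far above the other 3 of its group, and Ephb6 was at 759.046 in WT water replicate 2, far above the other 3. WT water replicate 3 is one of the libraries with over 20% mitochondrial counts. Without it, the Ephb3 difference under DSS in WT was -0.61 on the log2 scale (edgeR adjusted p = 0.125), and without WT water replicate 2 the Ephb6 difference between genotypes on water was -0.29 (edgeR adjusted p = 0.682), from -0.53.

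Efnb2 was flagged because all WT DSS libraries lay above the WT water mean and all Smad4 KO DSS libraries below the Smad4 KO water mean. The difference of the responses was -0.663 on the log2 scale and was not called (edgeR adjusted p = 0.643). Every Smad4 KO library was above every WT library on water, as for 5.18% of all genes, and below every WT library after DSS, as for 11.4%. The share of genes with both patterns was not counted.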

How the results depend on the processing

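The number of members called was 0 in all 5 comparisons. Between genotypes after DSS it was 1 (Ephb6) with DESeq2, with no filter and with the replicate number as a block, beside 3.3%, 1.51% and 0.377% of all genes. On water it was 2 (Ephb3 and Efnb2) in the 13-library model, beside 7.59% of all genes, and 3 (Ephb3, Efna4 and Efnb2) with a name prefix block, beside 13.3%. For DSS in WT it was 4 with DESeq2, beside 11.7%, and 1 (Ephb3) with no filter, beside 1.95%. Leaving out 1 library gave 0 to 1 in these 3 comparisons (Ephb6 without WT DSS replicate 1, Efna4 without Smad4 KO water replicate 4 and Ephb3 without WT water replicate 2, beside 0.661%, 11.5% and 2.34% of all genes) and 0 in the other 2, which stayed at 0 under every alternative run. Of 860 values of single members under alternatives, 806 kept their direction and side of the threshold, 16 became called and 38 changed sign. With the prefix block, signs turned for Ephb2 (-0.23) and Efnb1 (0.37) on water, Ephb6 (-0.10) and Epha2 (-0.29) for DSS in WT, and Ephb2 (0.52), Ephb4 (0.16), Epha1 (-0.13), Efna4 (0.36) and Efnb1 (-0.35) for DSS in Smad4 KO. Within Smad4 KO no prefix holds both water and DSS libraries. With the replicate block they turned for Epha2 in WT (-0.099) and Efna4 in Smad4 KO (0.21). Without the libraries of over 20% mitochondrial counts they turned for Ephb4 on water (0.14), Ephb2 (0.076) and Epha2 (-0.17) for DSS in WT, Efna4 for DSS in Smad4 KO (0.19), and the response differences of Ephb2 (-0.22), Ephb3 (-0.044) and Efnb1 (0.23). Leaving out 1 library spanned 0 for Epha1 after DSS (-0.059 to 0.11), on water for Ephb2 (-0.052 to 0.25), Ephb4 (-0.13 to 0.022) and Efnb1 (-0.20 to 0.13), for DSS in WT for Epha2 (-0.12 to 0.56), for DSS in Smad4 KO for Ephb2 (-0.18 to 0.077) and Efna4 (-0.21 to 0.19), and for the response differences of Ephb2 (-0.034 to 0.34), Ephb3 (-0.0053 to 0.32) and Efnb1 (-0.28 to 0.053). None of these was called, and the cause was not tested. Of 13 pairs of same-numbered libraries, 1 deviated together with a correlation over 0.1, that of replicate 4 of WT and Smad4 KO on water (0.415). These 2 libraries share the prefix MP. With 3 or 4 libraries per group, this cannot settle whether the numbers pair the mice. Calls over all genes ran, with the listed alternatives, from 1 to 499 after DSS (the highest with DESeq2, main 113), 1 to 2018 on water (the highest with the prefix block, main 1), 0 to 1777 for DSS in WT (the highest with DESeq2, main 0), 1 to 71 for DSS in Smad4 KO (main 1) and 1 to 32 for the response difference (main 1). Groups of 3 and 4 libraries, and for Epha2 as few as 22 raw counts, limit these comparisons.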
